A study of Mus musculus with 26 samples.

Results

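The 9 genes described here belong to the bone morphogenetic protein (BMP) pathway: 4 secreted antagonists (Grem1, Nog, Chrd and Fst), 3 ligands (Bmp2, Bmp4 and Bmp7) and 2 genes that BMP signalling switches on (Id1 and Id3). They were found by gene identifier among the 37310 genes counted in each library, and all 9 were present. Grem1 was chosen by its own measured CPM, for its rise in organoids given oligonucleotide, so that its values against untreated organoids are a description and were not tested. The libraries are polyadenylated RNA from mammary tumors of C57BL/6 mice carrying MMTV-PyMT, a viral oncogene under a mammary-active promoter, and from organoids, small 3-dimensional cultures grown from such tumors in Matrigel, a basement-membrane gel, with FGF2. All groups of both systems carry the transgene, and no normal mammary tissue was among them. Tumor-bearing mice received 125 mg/kg of oligonucleotide weekly under the skin for several weeks: ASO1 (3 tumors) or ASO2 (4 tumors), antisense strands against the nuclear noncoding RNA Malat1, or the control strand scASO (3 tumors). Organoids were exposed for 6 days, with renewal at day 3, to 500 nM of ASO1, ASO2 or scASO, or were labelled Mock, for which no oligonucleotide is named, with 4 libraries each. The labels give neither the age of the mice nor the number of mice or cultures behind a group, and the spread that the tests use is that between libraries, which may be technical.

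BMP ligands are secreted dimers that bring together type I and type II receptor kinases, which phosphorylate Smad1, Smad5 and Smad9. These join Smad4, enter the nucleus and raise transcription of Id genes, whose products bind basic helix-loop-helix factors and keep them from DNA. Gremlin 1, noggin, chordin and follistatin bind ligands outside the cell and keep them from their receptors, follistatin preferring activins. In the mammary gland BMP signalling takes part in bud formation and in the balance of luminal and basal cells, and Grem1 is known as a product of stromal fibroblasts in several tissues.

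Depth, as reads counted in genes, was between 9939520 and 51363552 per tumor and between 23973533 and 65146030 per organoid library. Malat1 in libraries given ASO1 or ASO2 was 45.0% of its level with scASO in tumors (exact two-sided permutation test, p = 0.0333, n = 7 and 3) and 35.4% in organoids (p = 0.121, n = 8 and 4, same exact test). Malat1 went against the label in 2 organoid libraries: the library labelled ASO2 replicate 1 had 1463 CPM (a gene's reads scaled to library size), the others of that label 96.9 to 311, and the library labelled scASO replicate 2 had 117 CPM, the others 792 to 1206. Without these 2 libraries 15.9% remained in organoids (n = 7 and 3). These 2 were left out for their Malat1 level itself, so that the remaining separation is a description and not a test. They also resembled other replicate numbers than their own. For the library labelled ASO2 replicate 1 the correlation was 0.480 with its own number and 0.803 with number 2; for that labelled scASO replicate 2 it was 0.541 with its own number and 0.784 with number 1. Each of the 2 thus had a Malat1 level nearer to that of the other's label and resembled the other's number most. Whether their labels were exchanged was not tested, the labels were kept, and same-number ratios and block values use the numbers as labelled. Organoid libraries that share a replicate number resembled each other across treatments, and results are given with and without a term for that number (the replicate block) where it changes them. Luminal markers of mammary epithelium (10 genes, Krt8 and Epcam among them) were present in every library, at a summed 3352 to 5606 CPM in tumors and 5168 to 9783 CPM in organoids. CPM values throughout were scaled together over all 26 libraries.

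The bases before the start of transcription are shown for Grem1, the member chosen for its rise, and for Bmp4, the tested member with the widest range in organoids as a ratio of highest to lowest CPM (RefSeq, GRCm38.p6; 250 bases, 5′ to 3′ on the gene's strand). The Grem1 stretch is chr2:113758649-113758898 on the minus strand, and the Bmp4 stretch is chr14:46390670-46390919 on the minus strand. Capitals mark matches to GGCGCC, a GC-rich motif bound by BMP-activated Smads, and to CAGAC, a Smad-binding element, each searched on both strands together with TATAAA; these motifs do not overlap one another.
Grem1: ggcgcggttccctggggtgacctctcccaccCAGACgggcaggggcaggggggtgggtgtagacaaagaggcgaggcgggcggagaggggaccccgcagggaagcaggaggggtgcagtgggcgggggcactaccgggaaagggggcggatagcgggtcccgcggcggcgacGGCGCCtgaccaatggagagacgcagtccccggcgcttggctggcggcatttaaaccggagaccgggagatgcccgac
Bmp4: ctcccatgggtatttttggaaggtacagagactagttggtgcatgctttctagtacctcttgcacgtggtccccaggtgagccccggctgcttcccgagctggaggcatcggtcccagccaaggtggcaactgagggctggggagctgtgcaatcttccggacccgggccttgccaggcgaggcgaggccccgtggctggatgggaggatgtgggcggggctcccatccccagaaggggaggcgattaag
Grem1 held GGCGCC beginning 78 bases and CAGAC beginning 219 bases before the start, in 72.0% GC, and Bmp4 held neither motif in 63.2% GC. Promoters were matched for 4 of 9 members, which also included Chrd (GGCGCC at 203 bases) and Id3 (CAGAC at 167 and at 68 bases). The RefSeq window of Id3, chr4:136143572-136143821 on the plus strand, lies within the GENCODE span of Id3 given below, whose start is further upstream. Of 32851 promoter windows of this length, 9.59% held GGCGCC, 42.2% CAGAC and 12.4% TATAAA, which none of these 4 held. A match describes only the letters in this window.

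On GRCm38, Grem1 lies at chr2:113746164-113758646, Nog at chr11:89300638-89302332, Chrd at chr16:20733127-20742384 and Fst at chr13:114452290-114458951. The ligands lie at chr2:133552159-133562885 (Bmp2), chr14:46383520-46390669 (Bmp4) and chr2:172868012-172940321 (Bmp7), and the targets at chr2:152736251-152737410 (Id1) and chr4:136143497-136145755 (Id3). All 9 are annotated as protein-coding, and counts are per gene, with no exon or transcript told apart. Chrd overlaps Thpo, Fst overlaps Gm47040, and Bmp4 overlaps Gm15217 and Gm15222, each on the opposite strand, so that reads of these pairs cannot be told apart where counting ignored strand.

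**Figure D1:**
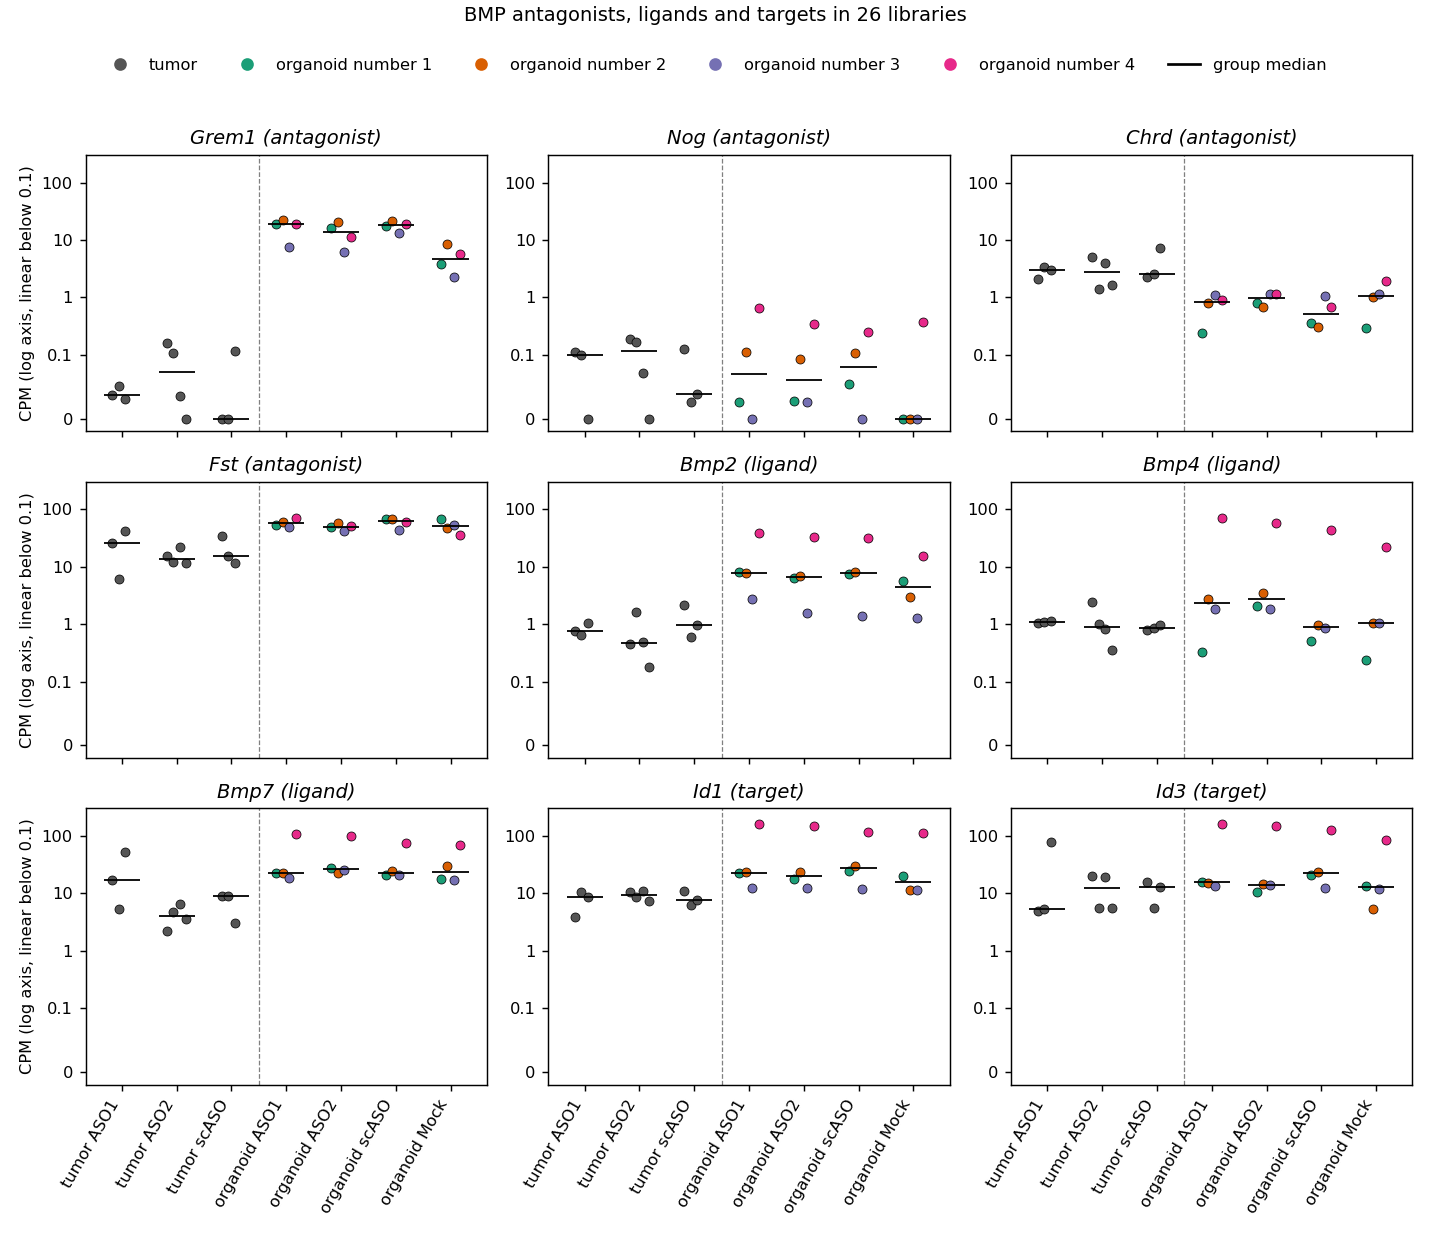
Level of each of the 9 genes in each of 26 libraries, in CPM on an axis that is logarithmic above 0.1 and linear below, by group; colours mark tumors and the organoid replicate numbers, and bars the group medians. Grem1 had at most 5 reads in any tumor and 2.3 to 21.9 CPM in organoids, and the organoid libraries of number 4 lie above the others for Bmp2, Bmp4, Bmp7, Id1 and Id3.

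Among the antagonists, Grem1 was nearly missing from tumors. With ASO1 the 3 tumors had 1, 3 and 1 reads, with ASO2 the 4 tumors had 5, 4, 1 and 0 reads, and with scASO the 3 tumors had 0, 0 and 3 reads. That is 18 reads in 10 tumors and at most 0.159 CPM, and the tumors at 0 reads allow up to 0.269, 0.0752 and 0.0788 CPM (3 reads of the library). In organoids the levels were 19.3, 21.9, 7.70 and 19.1 CPM with ASO1 and 16.2, 20.8, 6.23 and 11.2 CPM with ASO2. They were 17.4, 21.7, 13.0 and 19.1 CPM with scASO and 3.84, 8.43, 2.3 and 5.68 CPM with Mock. Every organoid library thus lay above every tumor, number 3 was the lowest in each treatment, and the treated and Mock ranges met because ASO1 and ASO2 of number 3 fell below the highest Mock library. Group means were 17.0 ± 6.33 (ASO1), 13.6 ± 6.31 (ASO2), 17.8 ± 3.67 (scASO) and 5.06 ± 2.64 CPM (Mock; SD, n = 4 each). The ranges of the 3 oligonucleotide groups overlapped, although within each replicate number as labelled ASO2 was below both ASO1 and scASO. In numbers 1 and 2 that order includes the libraries whose Malat1 went against the label, ASO2 replicate 1 and scASO replicate 2.

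Nog, which encodes noggin, was close to undetected in both systems. Tumors had 0 to 6 reads each (0 to 0.191 CPM, 30 reads in all), and organoid libraries of numbers 1 to 3 had 0 to 4 reads each (0 to 0.113 CPM, 16 reads in all). The 4 organoid libraries of number 4 held 61 reads, at 0.657 (ASO1), 0.345 (ASO2), 0.252 (scASO) and 0.381 CPM (Mock), above all other organoid libraries. Nog passed the filter on low counts only when both systems were fitted together, where all 9 genes did; 7 of 9 were tested in tumors (without Grem1 and Nog) and 8 of 9 in organoids (without Nog).

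Chrd, which encodes chordin, showed the opposite order to Grem1. Tumors had 2.12, 3.44 and 2.95 CPM with ASO1, 4.97, 1.41, 3.97 and 1.62 CPM with ASO2, and 2.31, 2.60 and 7.11 CPM with scASO. Organoids had 0.241, 0.791, 1.12 and 0.885 CPM with ASO1, 0.806, 0.690, 1.13 and 1.14 CPM with ASO2, 0.352, 0.301, 1.06 and 0.671 CPM with scASO, and 0.290, 1.02, 1.14 and 1.91 CPM with Mock. Of the organoid libraries only Mock number 4 reached the range of the tumors.

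Fst, which encodes follistatin, was well measured in every library, at 6.09 to 70.6 CPM. Tumors had 26.1, 6.09 and 42.5 CPM with ASO1, 15.1, 12.1, 21.7 and 11.8 CPM with ASO2, and 34.7, 15.5 and 11.7 CPM with scASO. Organoids had 53.6, 60.7, 49.7 and 70.6 CPM with ASO1, 48.5, 57.1, 41.6 and 51.2 CPM with ASO2, 66.6, 68.6, 44.2 and 59.6 CPM with scASO, and 67.5, 46.2, 53.9 and 35.8 CPM with Mock. The ranges of the systems met only through 1 tumor at 42.5 CPM, and within organoids the 4 treatments overlapped.

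Among the ligands, Bmp2 and Bmp4 were low in tumors. Bmp2 had 0.746, 0.642 and 1.05 CPM in tumors with ASO1, 0.446, 1.60, 0.496 and 0.179 CPM with ASO2, and 2.13, 0.604 and 0.972 CPM with scASO. In organoids Bmp2 had 7.91, 7.83, 2.73 and 37.9 CPM with ASO1, 6.45, 6.87, 1.53 and 32.6 CPM with ASO2, 7.49, 8.18, 1.41 and 31.9 CPM with scASO, and 5.69, 3.02, 1.26 and 15.3 CPM with Mock. Its order over replicate numbers, with number 3 lowest and number 4 highest, held in all 4 treatments.

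Bmp4 had 1.04, 1.1 and 1.11 CPM in tumors with ASO1, 2.45, 0.994, 0.815 and 0.359 CPM with ASO2, and 0.777, 0.867 and 0.972 CPM with scASO. In organoids it had 0.322, 2.74, 1.86 and 70.7 CPM with ASO1, 2.03, 3.52, 1.80 and 57.6 CPM with ASO2, 0.514, 0.957, 0.838 and 44.0 CPM with scASO, and 0.237, 1.05, 1.03 and 22.1 CPM with Mock. Organoids of numbers 1 to 3 therefore overlapped the tumors, and number 4 stood apart.

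Bmp7, a ligand of epithelial tissues, spread widely among tumors. Tumors had 17.1, 5.32 and 53.1 CPM with ASO1, 2.17, 4.66, 6.48 and 3.50 CPM with ASO2, and 9.05, 8.91 and 3.03 CPM with scASO. Organoids had 22.9, 22.5, 18.5 and 108 CPM with ASO1, 27.6, 22.8, 25.5 and 98.1 CPM with ASO2, 20.5, 24.5, 20.7 and 74.1 CPM with scASO, and 17.5, 30.3, 17.3 and 70.0 CPM with Mock. The tumor with 53.1 CPM, ASO1 replicate 3, was above every organoid library of numbers 1 to 3.

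The targets Id1 and Id3 encode inhibitors of DNA binding by basic helix-loop-helix factors. Id1 had 3.91, 10.5 and 8.49 CPM in tumors with ASO1, 10.5, 8.50, 10.8 and 7.27 CPM with ASO2, and 10.9, 6.31 and 7.73 CPM with scASO. In organoids Id1 had 22.2, 23.6, 12.6 and 158 CPM with ASO1, 17.4, 23.2, 12.3 and 148 CPM with ASO2, 24.8, 30.2, 11.9 and 116 CPM with scASO, and 19.7, 11.5, 11.4 and 114 CPM with Mock. Every organoid library was above every tumor for Id1.

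Id3 had 4.96, 5.40 and 79.2 CPM in tumors with ASO1, 20.2, 5.58, 19.5 and 5.47 CPM with ASO2, and 15.5, 5.49 and 12.9 CPM with scASO. In organoids Id3 had 15.9, 15.4, 13.4 and 162 CPM with ASO1, 10.6, 14.7, 13.7 and 149 CPM with ASO2, 20.5, 23.8, 12.6 and 128 CPM with scASO, and 13.6, 5.41, 11.9 and 84.8 CPM with Mock. Unlike Id1, Id3 overlapped between tumors and organoids of numbers 1 to 3, and its highest tumor was again ASO1 replicate 3.

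Levels can be ordered between genes only per length, here as median CPM per kilobase of annotated exon (GENCODE M21). In tumors the order was Id1 (7.32), Id3 (5.15), Fst (3.33), Bmp7 (1.47), Chrd (0.444), Bmp4 (0.437), Bmp2 (0.195), Nog (0.0508) and Grem1 (0.00876). In organoids of numbers 1 to 3 Grem1 stood in the middle at 3.52, between Bmp7 (5.64) and Bmp2 (1.71), with Id1 (16), Fst (11.7) and Id3 (7.63) above them and Bmp4 (0.462), Chrd (0.128) and Nog (0.0158) below. In organoids of number 4 Id1 (114) and Id3 (77.3) led, followed by Bmp4 (22.6), Bmp7 (21.4), Fst (12.1), Bmp2 (9.08), Grem1 (3.65), Nog (0.214) and Chrd (0.162). Per length the antagonist Fst was thus above every ligand in tumors and in organoids of numbers 1 to 3, and below Bmp4 and Bmp7 in number 4.

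Organoids and tumors given the same control strand were compared first. In organoids with scASO, 3 of the other 8 genes were higher than in tumors with scASO and 1 was lower, where 23.5% of the 18695 genes tested in all were called in either direction (edgeR's quasi-likelihood test, Benjamini-Hochberg adjusted p under 0.05). Fst was higher by 1.56 ± 0.43 on the log2 scale (SE, adjusted p = 0.0116), Bmp2 by 3.31 ± 1.14 (adjusted p = 0.0384) and Bmp7 by 2.33 ± 0.81 (adjusted p = 0.0413), while Chrd fell by 2.75 ± 0.61 (adjusted p = 0.00261). Id1 (2.47 ± 1.03, adjusted p = 0.0845), Bmp4 (3.72 ± 1.92, adjusted p = 0.161), Id3 (2.04 ± 1.26, adjusted p = 0.244) and Nog (0.64 ± 1.52, adjusted p = 0.792) did not pass. Grem1, not tested here because these organoid libraries entered its choice, was 629 times its tumor level (2186 reads against 3 in all; exact 95% counting interval 215 to 3054), with all 3 tumor reads in replicate 3; the fitted difference of 9.03 ± 0.90 rests on those reads. System, culture medium, dose and route differ together between these groups and cannot be told apart.

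The calls rest on particular libraries. Without number 4, Chrd, Fst, Bmp2 and Bmp7 kept their calls and Id1 passed as well, at 1.46 ± 0.40 (adjusted p = 0.0133), while Bmp4 came to -0.16 ± 0.67 (adjusted p = 0.885). Without the 2 libraries whose Malat1 went against the label, Chrd and Fst remained, and Bmp2 (adjusted p = 0.056) and Bmp7 (adjusted p = 0.0578) did not pass. Bmp7 did not pass without the filter on low counts (adjusted p = 0.0555), and DESeq2 called Id1 as well (2.49, adjusted p = 0.0239). Leaving out tumor scASO replicate 2 or 3 kept only Chrd, leaving out tumor scASO replicate 1, organoid scASO replicate 2 or organoid scASO replicate 4 kept Chrd and Fst, and the ratio for Grem1 without the library labelled scASO replicate 2 was 577 (counting interval 197 to 2800).

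Markers of other cell types moved with this comparison. The summed level of 8 endothelial markers was 59.4 to 70.8 CPM in scASO tumors and 7.45 to 29.8 CPM in scASO organoids. The 10 myoepithelial or basal markers summed to 446 to 1815 CPM in scASO tumors and 2359 to 6842 CPM in scASO organoids, and the 12 fibroblast markers to 855 to 1058 CPM and 1307 to 3012 CPM. Within the myoepithelial or basal list, medians in all tumors and in organoids of numbers 1 to 3 rose for Krt5 (99.2 and 1293 CPM), Krt14 (93.1 and 1240), Krt17 and Trp63. They fell for Myh11 (97.5 and 55.5 CPM), Cnn1 (51.8 and 21.4) and Tagln (184 and 64.3). Medians of Acta2, Myl9 and Oxtr were above the tumors in numbers 1 to 3 and below them in number 4. Within the fibroblast list, Fn1 had medians of 82.7 CPM in all tumors and 1724 CPM in organoids of numbers 1 to 3. Medians were lower in those organoids for Col1a1 (81.4 and 31.2 CPM), Col1a2 (112 and 37.8) and Col3a1 (137 and 22.3). The same held for Lum, Dcn, Pdgfrb and Thy1, while Postn, Vim, Fbln1 and Pdgfra were higher. Over all libraries, macrophage markers summed to 336 to 721 CPM in tumors and 218 to 559 CPM in organoids, adipocyte markers to 7.81 to 812 and 3.4 to 75.7 CPM, and skeletal muscle markers to 3.19 to 1899 and 5.23 to 25.2 CPM, with the adipocyte gene Plin1 at 0 in scASO tumors. Within the macrophage list, Cd14 had medians of 153 CPM in tumors and 367 CPM in organoids of numbers 1 to 3. Every other gene of that list had a lower median in those organoids, such as Ptprc (24.2 and 0.911 CPM), Csf1r (49.7 and 2.39) and Adgre1 (21.1 and 1.96). The part of these markers in the result was not tested, and in bulk samples fewer cells of a type and less RNA per cell cannot be told apart.

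**Figure D2:**
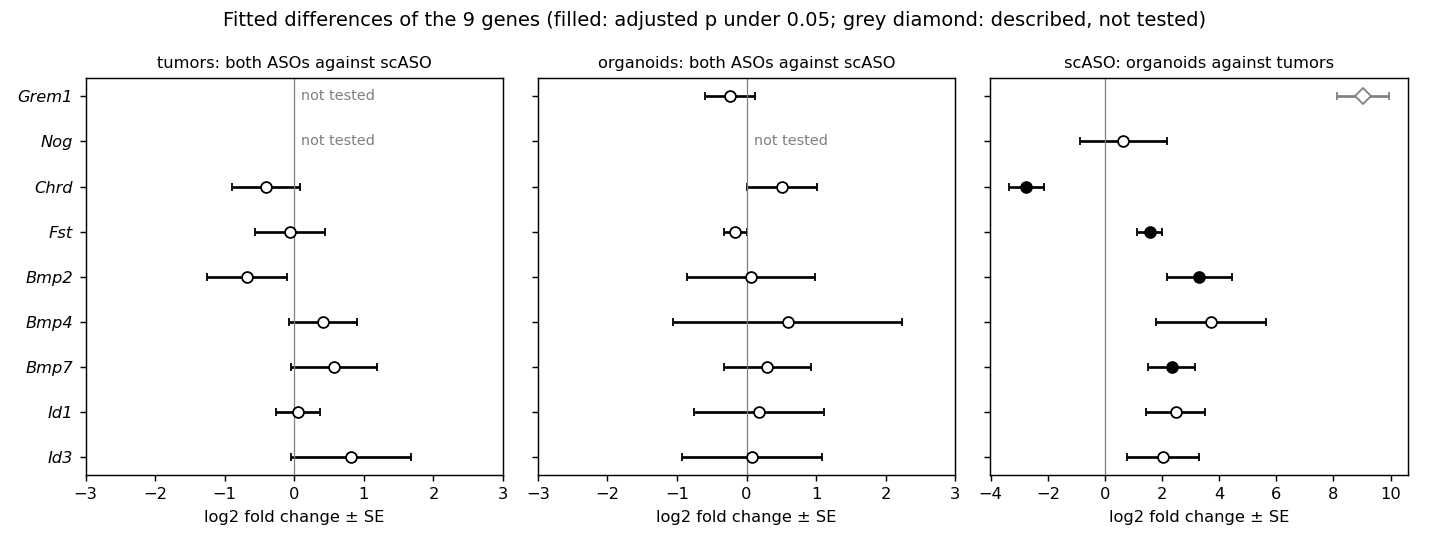
Fitted log2 fold changes of the 9 genes with standard errors: both ASOs against scASO in tumors and in organoids, and organoids against tumors given scASO. Filled points have an adjusted p under 0.05 (edgeR), and the grey diamond was not tested. Filled points appear only in the last comparison, for Chrd, Fst, Bmp2 and Bmp7.

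The Malat1 oligonucleotides were compared with the control strand in each system. None of the tested members was called in tumors or organoids by edgeR. In tumors with either ASO 0 of 7 members and 0% of 17354 genes were called (1017 genes had an unadjusted p under 0.05, and DESeq2 called 20). With ASO1 0 members and 1 gene in all were called (0.00576%; 1466 genes at the unadjusted p, DESeq2 112), and with ASO2 0 genes (892 at the unadjusted p, DESeq2 45). In organoids 0 of 8 members and 0% of 17126 genes were called for either ASO (182 at the unadjusted p, DESeq2 0), for ASO1 (44, DESeq2 0) and for ASO2 (287, DESeq2 0), and still 0 genes with the replicate block. The block raised the counts at the unadjusted p to 3157 (either ASO), 1226 (ASO1) and 3544 (ASO2).

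None of the differences in tumors passed for the 7 members tested: Chrd -0.41 ± 0.49, Fst -0.06 ± 0.50, Bmp2 -0.68 ± 0.57, Bmp4 0.41 ± 0.49, Bmp7 0.57 ± 0.62, Id1 0.05 ± 0.32 and Id3 0.81 ± 0.86 (log2, both ASOs against scASO, SE, adjusted p from 0.867 to 0.989). In organoids they were Grem1 -0.24 ± 0.36, Chrd 0.51 ± 0.50, Fst -0.16 ± 0.16, Bmp2 0.07 ± 0.92, Bmp4 0.59 ± 1.64, Bmp7 0.30 ± 0.62, Id1 0.18 ± 0.93 and Id3 0.08 ± 1.01. With the block the errors shrank, and Bmp4 stood at 0.99 ± 0.32 (adjusted p = 0.196) and Grem1 at -0.33 ± 0.17 (adjusted p = 0.298). Without the 2 libraries against their labels these became 0.52 ± 0.21 (adjusted p = 0.488) and -0.54 ± 0.16 (adjusted p = 0.443). For ASO2 alone Grem1 stood at -0.40 ± 0.43 against scASO, at -0.50 ± 0.20 with the block (adjusted p = 0.195) and at -0.79 ± 0.20 with the 2 libraries also left out (adjusted p = 0.391), and for ASO1 alone at -0.16 ± 0.19 with the block (adjusted p = 0.82). As labelled, ASO2 was the lower in 4 of 4 numbers, but numbers 1 and 2 each include 1 of the 2 libraries against their labels. No difference of Grem1 between strands passed after adjustment.

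Bmp7 differed between the 2 Malat1 strands in tumors by 2.56 ± 0.68 (ASO1 above ASO2), which edgeR did not call after adjustment (adjusted p = 0.47, 0% of genes called, 1743 at the unadjusted p) and DESeq2 did (2.57, adjusted p = 0.0158, among 149 genes). All 3 ASO1 tumors lay above 3 of the 4 ASO2 tumors, and ASO1 replicate 2 (5.32 CPM) lay below ASO2 replicate 3 (6.48 CPM). The tumor with the highest Bmp7 and Id3 was ASO1 replicate 3. It also had the highest summed myoepithelial or basal markers (5168 CPM against 446 to 2752 CPM) and endothelial markers (161 CPM against 29.6 to 91.6 CPM). Its macrophage sum was the highest too (721 CPM against 336 to 637 CPM). Its fibroblast sum (2698 CPM) was below only that of ASO2 replicate 1 (3329 CPM). The part of these markers in the result was not tested. Without ASO1 replicate 3 the Id3 difference of ASO1 from scASO went from 1.41 ± 0.99 to -1.09 ± 0.66. ASO1 and ASO2 organoids also had 0 members and 0% of genes called (26 at the unadjusted p).

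Whether the response to both ASOs differed between systems was tested as a difference of differences in the fit of both. It was called for 0 of the 7 members that passed the filter on low counts in tumors and for 0% of 18695 genes (831 at the unadjusted p, DESeq2 2, and 57 genes but 0 members with the block). Chrd stood at 0.96 ± 0.71 (organoid minus tumor response, log2).

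Organoids given any oligonucleotide were set against Mock as a description, since this contrast chose Grem1. With scASO, ASO1 or ASO2 alone and with all 3 together 0% of genes were called by edgeR without the block (272, 331, 312 and 401 genes at an unadjusted p under 0.05, and 1, 7, 0 and 6 called by DESeq2); with the block 3.30% of 17126 genes were called for all 3 together, 408 higher and 158 lower. All comparisons with Mock share the same 4 Mock libraries. Grem1 was above the Mock library of the same number in 12 of 12 libraries, by 1.97 to 5.64 times (median 3.35), and so was Bmp2, by 1.12 to 2.71 times (median 2.1). Over all tested genes 3.00% were higher in all 12. Grem1 stood at 1.73 ± 0.44 with ASO1, 1.41 ± 0.43 with ASO2 and 1.80 ± 0.44 with scASO on the log2 scale.

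For the other genes the ratio to the same-numbered Mock library was less uniform. Id1 was higher in 11 of 12 libraries (median 1.19 times) and Id3 in 11 (median 1.5), Bmp4 in 10 (median 2.08) and Bmp7 in 9 (median 1.19), while Fst was higher in 6 (median 1.11) and Chrd in 2 (median 0.806). Bmp4 ranged from 0.812 to 8.57 times, and to 3.36 times without the 2 libraries against their labels, since the highest ratio was that of the library labelled ASO2 replicate 1. Both ends of the range of Chrd (0.296 to 2.78 times) came from those 2 libraries, without which it was 0.352 to 1.21. Without the 2 libraries against their labels, Grem1, Bmp2, Id1 and Id3 were higher in 10 of 10, where 5.42% of genes were, Bmp4 in 9, Bmp7 in 8, Fst in 5 and Chrd in 1.

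With the block, the log2 differences from Mock were 1.70 ± 0.18 for Grem1, 0.84 ± 0.16 for Bmp2, 1.13 ± 0.32 for Bmp4, 0.63 ± 0.22 for Id3, 0.38 ± 0.15 for Id1, 0.16 ± 0.13 for Bmp7, 0.12 ± 0.14 for Fst and -0.46 ± 0.28 for Chrd. Without the block the errors were 0.39 for Grem1 (at 1.65) and 0.92 for Bmp2 (at 1.00). Summed fibroblast markers were also higher than in the same-numbered Mock library in 12 of 12 libraries, by 1.29 to 2.12 times, and by 1.08 to 1.90 times without Fn1. Summed myoepithelial or basal markers were higher in 12 of 12, by 1.16 to 1.76 times. Endothelial sums were higher in 11 (median 1.29 times), adipocyte sums in 11 (median 1.52), macrophage sums in 10 (median 1.18), skeletal muscle sums in 9 (median 2.14) and luminal sums in 7 (median 1.06). The part of these markers in the values of Grem1 was not tested.

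**Figure D3:**
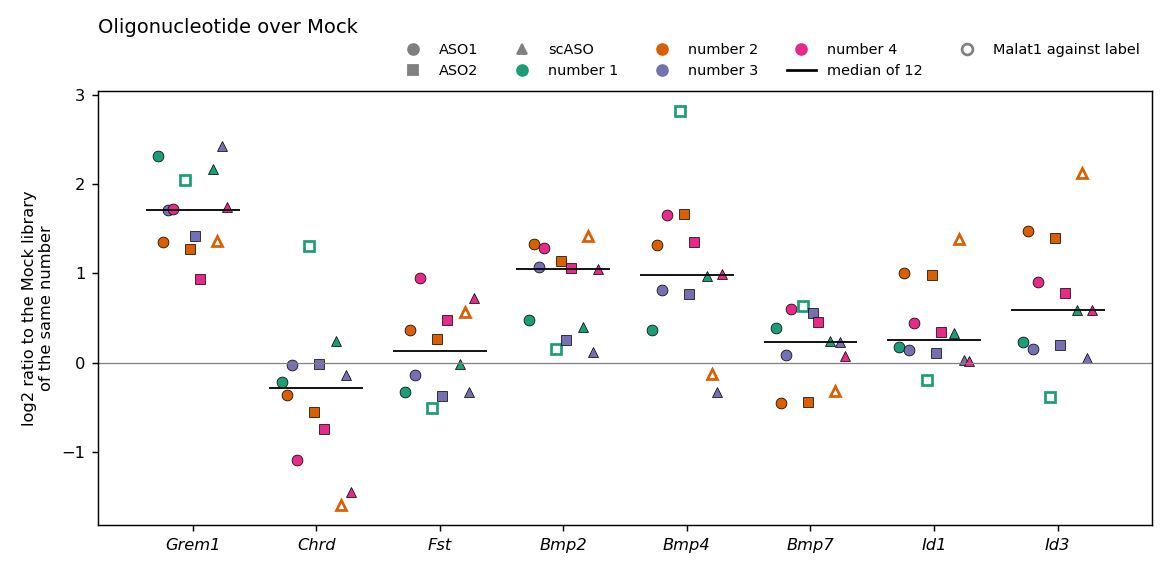
Ratio of each organoid library to the Mock library of the same replicate number for 8 genes, on a log2 axis, with 1 point per library (12 per gene), colours for the number, shapes for the treatment, bars for the median and open markers for the 2 libraries whose Malat1 went against the label. All 12 points of Grem1 lie between 1.97 and 5.64 times Mock, and those of Chrd between 0.296 and 2.78, or between 0.352 and 1.21 without the open markers.

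For the ligands and targets, the widest difference among organoids ran along replicate numbers, not treatments. In number 4, a grouping singled out after its values were seen and so described without a test, 5 of the 8 tested members lay above numbers 1 to 3 with no overlap across all 4 treatments and none lay below, where 12.6% of all genes lay above and 11.8% below. The ligands and targets made up those 5: Bmp2 at 15.3 to 37.9 CPM against 1.26 to 8.18 (ratio of means 5.86), Bmp4 at 22.1 to 70.7 against 0.237 to 3.52 (34.5), Bmp7 at 70.0 to 108 against 17.3 to 30.3 (3.88), Id1 at 114 to 158 against 11.4 to 30.2 (7.30) and Id3 at 84.8 to 162 against 5.41 to 23.8 (9.17). The tested antagonists overlapped, with ratios of means of 1.04 for Grem1, 1.55 for Chrd and 0.989 for Fst. The median ratio was 4.87 over the 8 members and 0.954 over all genes. The labels do not say what a replicate number shares, and the 4 libraries of number 4 resembled one another, so that they are not 4 independent observations of this difference.

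Several other BMP targets stood high in number 4 as well. Over all genes tested in organoids, 12.6% lay above numbers 1 to 3 without overlap and 11.8% below. Of 13 other BMP targets, 8 lay above without overlap and none below: Smad6, Smad7 and Bambi, which feed back on the pathway (ratios of means 2.01, 2.33 and 3.09), Smad9 (6.09), Id4 (1.85) and the homeobox genes Msx1 (13.9), Msx2 (11.6) and Dlx3 (39.2). Dlx3 had 104 to 186 CPM in number 4 against 1.47 to 6.71. The remaining targets overlapped: Hey1 (0.649), Dlx5 (0.737), Id2 (1.43), Runx2 (1.44) and Atoh8 (4.54). Of 5 other ligands Bmp8a lay above, at 2.63 to 11.9 CPM against 0.0882 to 0.301. Of 18 other antagonists and modulators Bambi lay above, and Twsg1 (0.714) and Smoc1 (0.259) lay below. Of 11 receptor genes Acvr2a lay above and Eng, Rgma and Rgmb below, of 10 Smad pathway genes 5 lay above (Smad5 and Ppm1a besides those named), and of 4 activin genes Inhbb lay below (0.624). Over all 57 other pathway genes tested, 12 lay above and 6 below, beside 12.6% and 11.8% of all genes.

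Cell type markers also differed along numbers. Of the 10 myoepithelial or basal markers, Krt14 (2046 to 4398 CPM against 752 to 1864), Krt17 and Trp63 lay above numbers 1 to 3 in number 4, and the contractile genes Acta2 (54.3 to 152 CPM against 216 to 478) and Myl9, with Oxtr, lay below; the list summed to 5373 to 9431 CPM against 2043 to 5581. Of the 12 fibroblast markers Dcn (87.1 to 209 CPM against 1.64 to 47.2) and Fbln1 lay above and Pdgfra below, with sums of 888 to 1879 CPM against 758 to 4345. Of the 10 luminal markers Elf5, Esr1 and Prlr lay below, with sums of 5168 to 5971 CPM against 5440 to 9783. Of the 8 adipocyte markers Fabp4 lay above (13.1 to 72.2 CPM against 1 to 7.16) and Adipoq and Lep were at 0 in number 4, with sums of 14.9 to 75.7 CPM against 3.4 to 12.7. The part of these markers in the levels of the 5 genes was not tested.

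**Figure D4:**
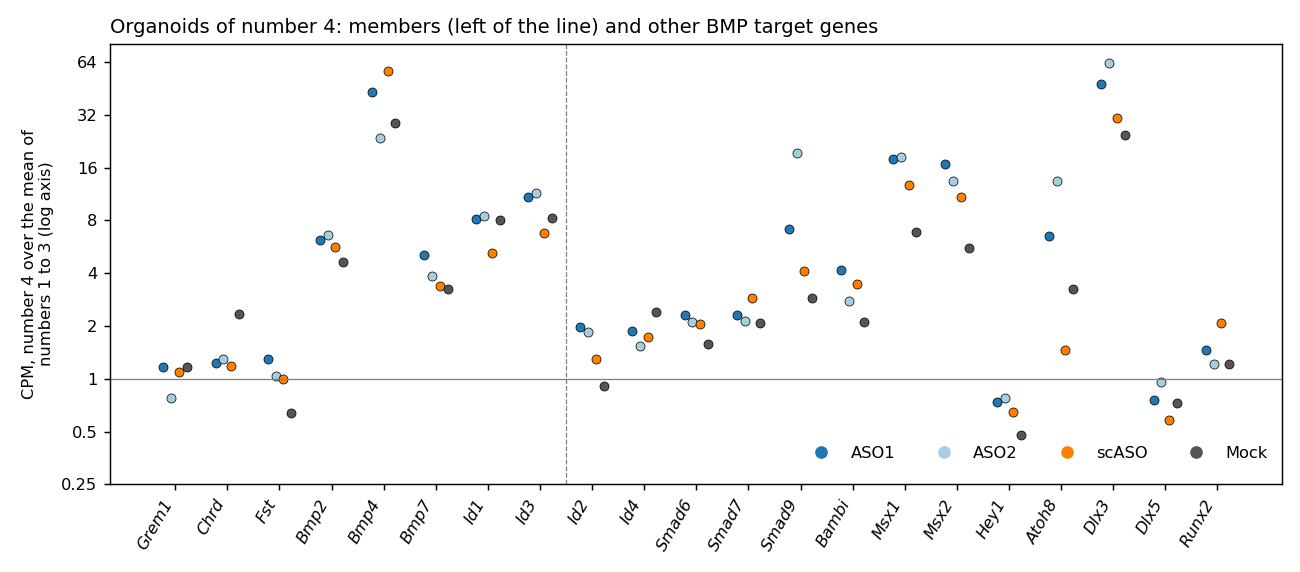
CPM of the organoid library of number 4 divided by the mean of numbers 1 to 3 of the same treatment, on a logarithmic axis, with 1 point per treatment for the 8 tested members (left of the dashed line) and for 13 other BMP target genes (right). The points of Bmp4 lie between 23.5 and 57.2 and those of Grem1 between 0.773 and 1.17.

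The rest of the pathway was followed through lists of 70 genes, by role, in organoids against tumors given scASO. Of 61 other pathway genes tested 14 were higher and 6 lower (edgeR, adjusted p under 0.05; median 0.54 against 0.00 over all genes), where 23.5% of all genes were called, 2136 higher and 2256 lower. The counts were 12 and 4 without number 4, where 25% of all genes were called, and 11 and 4 without the 2 libraries against their labels, where 16.6% were. Leaving out tumor scASO replicate 2 or 3 gave 9 and 4 or 8 and 4, and leaving out organoid scASO replicate 4 gave 9 and 3. Acvr1, Acvr2a, Smurf2, Bambi, Dlx5, Fstl1, Fstl3, Chrdl1 and Chrdl2 lost their call in at least 1 of the fits that leave out 1 scASO library, and the other 11 named below kept theirs in all 7. In both ASOs against scASO 0 of 59 were called in tumors and 0 of 57 in organoids. Against Mock with the block, Bmp1 (0.60 ± 0.12) and Bmper (1.24 ± 0.30) were the only 2 of 57 past the threshold, where 3.30% of all genes were called.

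Of 8 other ligands, none was higher and Gdf5, a cartilage and joint growth factor, was lower (-1.77 ± 0.49, adjusted p = 0.0121; median of the list -0.90). Its levels were 3.39 to 19.7 CPM in tumors and 1.63 to 5.59 CPM in organoids. The next most abundant, Bmp8a (2.54 ± 1.74) and Bmp6 (1.51 ± 1.14), did not pass.

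Of 11 receptor genes, 4 were higher and 2 lower (median 0.61). The type II receptor Bmpr2 rose by 2.3 ± 0.58 (adjusted p = 0.00686), from 4.14 to 48.1 CPM over all tumors to 43.9 to 156 CPM over organoids of numbers 1 to 3. Neo1, a receptor for repulsive guidance molecules, rose by 1.22 ± 0.25 (adjusted p = 0.00172), Acvr2a by 0.76 (adjusted p = 0.0472) and Acvr1 by 0.54 (adjusted p = 0.0426). The receptor Acvrl1 (-0.98 ± 0.20, adjusted p = 0.00122) and the co-receptor Eng (-2.43 ± 0.50, adjusted p = 0.00164) fell. Acvrl1 had 23.9 to 44.4 CPM over all tumors and still 17.2 to 28.4 CPM over organoids of numbers 1 to 3. Bmpr1a, a type I receptor, stood at 0.44 ± 0.22 and did not pass.

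Of 10 Smad pathway genes, Smurf2, a ubiquitin ligase for Smads, rose by 0.73 (adjusted p = 0.0298; median 0.35). Smad5 (0.04 ± 0.14) and the phosphatase Ppm1a (-0.03 ± 0.16) did not pass.

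Of 18 other antagonists and modulators, 6 were higher and 3 lower (median 1.09). The 6 were Bmp1, the protease that cleaves chordin (2.19 ± 0.44, adjusted p = 0.00122), its relative Tll2 (4.41), the membrane protein Crim1 (2.48 ± 0.38, adjusted p = 0.000113), the antagonist Sostdc1 (3.39 ± 0.69), the pseudoreceptor Bambi (1.96) and the activin-binding Fstl3 (1.29). Bmp1 had 20.6 to 109 CPM in tumors, 136 to 323 CPM in organoids of numbers 1 to 3 and 74.0 to 152 CPM in number 4. The 3 lower were Fstl1 (-1.62) and the chordin-like genes Chrdl1 (-1.91) and Chrdl2 (-2.37), which moved in the direction of Chrd. Twsg1 (-0.24 ± 0.20) and Smoc1 (0.16 ± 0.61) did not pass.

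Of 13 other targets 3 were higher and none lower (median 1.19): Id4 (2.91 ± 0.70, adjusted p = 0.0052), Dlx5 (2.37, adjusted p = 0.0125) and Bambi, which stands in both lists. Id2 stood at -0.77 ± 0.36 (adjusted p = 0.123), and Hey1 at -0.03 ± 0.40. Of 5 activin genes Inhba, the activin A subunit that follistatin binds, rose by 5.61 ± 1.22 (adjusted p = 0.00235), from 0.179 to 1.06 CPM in tumors to 2.27 to 172 CPM in organoids of numbers 1 to 3 and 31.4 to 61.9 CPM in number 4. Inhbb (-0.14 ± 0.41) and Acvr1b (0.25 ± 0.24) did not pass.

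The genes with the pattern most like that of Grem1 were found by Pearson's r of log2 CPM, a description with no test, over libraries that share replicate numbers and treatments. Over the 16 organoid libraries and 12477 genes the nearest included Cd109, a membrane protein that binds TGF-beta (0.929), Tenm4 (0.919), Serping1 (0.902) and 8030462N17Rik (0.901). Cd109 averaged 111 CPM with oligonucleotide and 68.6 CPM with Mock, and Serping1, the C1 inhibitor of complement, 13.6 and 5.02 CPM. After each number's mean was taken away the nearest were Serpina3n (0.932), Adam19 (0.927), Kif1a (0.912), Cd109 (0.908) and Tenm4 (0.904). Serpina3n averaged 6.24 CPM with oligonucleotide and 2.99 CPM with Mock. Over the 10 tumors Efnb3 (0.953), Gabre (0.937), Trpv6 (0.918), Olfml2b (0.908) and Tfcp2 (0.900) came nearest, which rests on at most 5 reads of Grem1 in a tumor.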

How the data were processed

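The authors deposited 1 table of raw counts of reads per gene for each of 26 libraries (polyadenylated RNA, TRIzol, TruSeq, per the labels' protocols). CASAVA, FastQC, STAR, HTSeq, DESeq2 and mm9 are named in the submitters' processing notes. The sources used here do not give versions, options, annotation or use of strand. The closing lines of each table entered neither library sizes nor tests. As a percentage of the reads assigned to genes, reads in no feature held 8.34 to 24.5%, ambiguous reads 3.90 to 8.70% and reads with several alignments 21.2 to 44.0%. Of 37310 gene identifiers 32620 matched a symbol in GENCODE M21 on GRCm38, whose positions are given.

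Groups and replicate numbers came from the sample titles. The members, the pathway lists, the marker lists and the tests were chosen with earlier results of these data known. Counts were fitted with edgeR 4.0.16 in R 4.3.3 (quasi-likelihood F-test, TMM, filterByExpr at 10 reads per library and 15 in total), with tumors, organoids and both systems each in 1 fit over all groups, and adjusted by the Benjamini-Hochberg method over all genes tested, with a threshold of 0.05. A standard error is the size of the log2 fold change over the root of its F statistic. Log2 CPM used a prior count of 2. The fits were tested on simulated counts. Named are all 9 members, the called and the 3 most abundant genes of each pathway list, and the 5 genes most like Grem1 among those averaging at least 1 in log2 CPM, of which 1 is not reported here; genes standing apart in number 4 were named after their values were seen. Intervals and limits for 0 reads cover counting error only.

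Alternatives were RLE scaling, no filter, DESeq2 1.42.0, the compared groups alone, each library left out and the replicate block; leaving out number 4 or the 2 libraries against their Malat1 label was added after seeing the data. Deviations from group means correlated above 0.1 in 24 of 24 same-numbered organoid pairs (0.426 to 0.935), so that the numbers pair the organoids, and in 3 of 9 tumor pairs, which share only a number. No 2 libraries of a group were alike within sampling noise (chi-square per degree of freedom 14.0 to 413 over 36 pairs).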

Additional observations from a re-analysis of the deposited data

Results flagged for a closer look

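In groups of 4 (the 4 organoid treatments and the ASO2 tumors), a library was marked when its gap to the nearest other library exceeded 0.829 of the group's range (Dixon's ratio). Of 45 groups tested, 36 of organoids and 9 of tumors, 16 were marked, all of organoids and all through the library of number 4. The 4 libraries of number 4 resembled one another, so the marks are not independent and no chance rate is set against them. Over all genes tested in organoids, 12.6% lay above and 11.8% below numbers 1 to 3 in number 4 with no overlap. Bmp4 was marked in every treatment, at 70.7 CPM (ASO1), 57.6 CPM (ASO2), 44.0 CPM (scASO) and 22.1 CPM (Mock), and so was Id3, at 162, 149, 128 and 84.8 CPM in the same order. Id1 was marked at 158 CPM (ASO1), 148 CPM (ASO2) and 114 CPM (Mock), and Bmp7 at 108 CPM (ASO1), 98.1 CPM (ASO2) and 74.1 CPM (scASO). Bmp2 was marked at 37.9 CPM (ASO1). Nog was marked at 0.381 CPM in Mock, where the other 3 libraries had 0 reads. No library was marked for Grem1, Chrd or Fst.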

How the results depend on the processing

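Of 229 alternative counts of members called (14 results), 216 were counted as the same, meaning equal to the first count or within 1.5 times of it. The first count was 0 in every result except organoids against tumors given scASO. Where it was 0, only another 0 counted as the same, so that most of the 216 are 0 against 0. Of 451 alternative log2 fold changes (26 results), 418 were counted as the same, 15 lost a call, 3 gained a call, 8 moved and 7 reversed. The same meant an unchanged direction and side of the threshold. For differences from Mock and for Grem1 against tumors it meant a value within the standard error of the first, whatever its side of the threshold. Bmp2 against Mock, called with the block for all oligonucleotides, was therefore counted as the same. With DESeq2, 1 member (Bmp7) was called for tumor ASO1 against ASO2. With the replicate block, 1 tested member other than Grem1 was called against Mock for ASO1 (Bmp2), ASO2 (Bmp4) and all oligonucleotides (Bmp2). In the same order 2.38%, 1.82% and 3.3% of 17126 genes were called. With the 2 libraries against their labels also left out the member counts were 3, 2 and 3. There 6.69%, 3.42% and 9.04% of 17325 genes were called. Like the other values against Mock, these counts are a description. The block changed no member call between ASOs and scASO in either system. No paired analysis was possible because tumors and organoids share no numbered source for organoid scASO against tumor scASO; there the count ranged from 1 to 4 on leaving out each library and was 2 without the 2 libraries. Signs reversed for some differences that had not passed, each given with its lowest and highest value over the left-out libraries. In organoids against tumors these were Bmp4 (-0.16 without organoid scASO replicate 4, to 4.12) and Nog (-0.11 without the same library, to 1.59), and Bmp4 also without number 4 (-0.16). In tumors they were Id3 for ASO1 (-1.09 without ASO1 replicate 3, to 1.90) and for both ASOs (-0.45 without the same tumor, to 1.11), and in organoids Bmp4 for both ASOs (-1.19 without ASO1 replicate 4, -0.78 without ASO2 replicate 4, to 4.52). The cause was not tested. Over all genes, DESeq2 called 112 genes for tumor ASO1 against scASO (edgeR 1), 45 for ASO2, 20 for both and 149 for ASO1 against ASO2 (edgeR 0 each); without the filter edgeR called 3 for ASO1 and 4 for ASO1 against ASO2, and with the block or the compared groups alone 0. Against Mock, where edgeR called 0 genes, the block gave 128 (scASO), 407 (ASO1), 312 (ASO2) and 566 (all), and 308, 1159, 593 and 1566 with the 2 libraries also left out, which gave 1, 3 and 4 genes for ASO1, ASO2 and both against scASO. The difference of responses had 57 genes with the block, 15 with the block and without the 2 libraries, and 2 with DESeq2, against 0. Organoids against tumors had 4392 genes, and 2722 or 2632 without tumor scASO replicate 2 or 3. Depth limits Grem1 and Nog in tumors to a few reads.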
